A study of Mus musculus with 26 samples.

Results

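The effect of losing Prss57, the gene for the neutrophil serine protease NSP4, was examined in sorted common myeloid progenitors (CMPs) across all measured genes. The samples were chosen by their genotype and cell type labels and comprised 4 Prss57-/- CMP libraries, labelled NSP4 KO, and 4 wild-type (WT) CMP libraries, together 8 of the 26 RNA-seq libraries of the series. All 8 came from bone marrow of untreated female mice. The study used age-matched littermates throughout and defined CMPs as lineage-negative, SCA-1-negative, CD117+, CD34+ cells with low CD16/32. Granulocyte-macrophage progenitors (GMPs), the CD16/32-high neighbors of CMPs in the same gate, contributed 4 WT and 4 Prss57-/- libraries that are used here for comparison. The study used Prss57-/- strains of more than 1 design, 1 with a deletion in exons 2 and 3 and 1 in exon 2 alone. Its supplement gives the exon 2 strain for all experiments but those of 1 figure, and the labels of these libraries do not name the strain. The labels do not state how many animals went into a library, so p-values measure the spread between these libraries.

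CMPs give rise to GMPs, which form neutrophils, monocytes, eosinophils, basophils and mast cells, and to megakaryocyte and erythroid progenitors, which form platelets and red cells. Single CMPs already carry low levels of transcripts from these lineages, under regulators such as PU.1 (Spi1) and C/EBPα on the granulocyte and monocyte side and GATA1 and KLF1 on the erythroid side. NSP4 belongs to the same family of granule proteases as elastase, proteinase 3 and cathepsin G, which myeloid progenitors begin to make at the CMP to GMP transition.

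The CMP libraries held 32078404 to 53264762 reads on genes. All were sequenced in 1 run and 1 pool. Prss57-/- library 2 stood apart from the others: genes with under 1500 exon bases took 14.4% of its reads against 6.11% to 10.1% in the other 7 libraries, and ribosomal protein genes took 8.47% against 2.59% to 5.06%. Prss57-/- library 1 and WT library 3 lay at the opposite end, with 6.11% and 6.97% of reads on short genes. The first sequencing index was shared by WT library 4 and Prss57-/- libraries 1 to 3, whereas WT libraries 1 to 3 carried another index and Prss57-/- library 4 another still, so that within 1 index the genotypes can be compared only as Prss57-/- libraries 1 to 3 against WT library 4. A fit with the index as a covariate rests on that single WT library, which is assumed to vary like the others.

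The genotype and the sort were checked first. Prss57 was measured at 17.1, 26.9, 17.0 and 32.0 normalized RPKM (reads scaled for gene length and library size, as deposited) in WT libraries 1 to 4, and 1 read was counted in each Prss57-/- library. Taking 3 counts per library as the floor, the knockout level was at least 1145-fold lower, with an adjusted p of 3.19e-06 (edgeR). The gate genes did not separate the genotypes. Kit, the receptor for stem cell factor (CD117), stood at 57.4 ± 8.47 normalized RPKM (SD, n = 4) in WT and 56.8 ± 16.8 in Prss57-/- CMPs, and Cd34 at 321 ± 14.8 and 309 ± 13.6. The Fc gamma receptor genes behind the CD16/32 gate were lower in WT CMPs than in WT GMPs, Fcgr3 by a log2 difference of -3.79 (adjusted p = 1.19e-05, edgeR quasi-likelihood test) and Fcgr2b by -1.93 (adjusted p = 1.73e-06). In that comparison of cell types 12.8% of 14967 genes passed an adjusted p under 0.01 with at least a 2-fold change. The lineage genes Cd3e, Cd8a, Cd2 and Ly6g had between 7 and 20 reads each over all 8 CMP libraries.

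Across the transcriptome, the loss of Prss57 was accompanied by no other gene that passed the test. Of 14916 genes tested, Prss57 was the only one at an adjusted p under 0.05 (edgeR, 0.00670% of genes), and the next smallest adjusted p was 0.99993. At an unadjusted p under 0.05 stood 76 genes (0.510%), 53 of them higher (0.355%) and 23 lower (0.154%) in Prss57-/- CMPs. If no gene differed, a share of about 0.05 would be expected at this threshold, and the share found was far lower. Few or no genes at this threshold therefore do not show that the genes were unchanged. In 122 genes (0.818%) the genotypes did not overlap, with every Prss57-/- library above every WT library in 63 and below in 59. If no gene differed, a share of about 0.0286 would be expected there. The reason for the low shares was not tested. DESeq2 called 5 genes at an adjusted p under 0.05 in place of 1, which were Prss57, Palm, Xkrx, Gm6954 and Tmem267. The precision of these statements is set by the spread between libraries. For 66.4% of the genes the 95% interval of the fold change lay within 2-fold in either direction, and this share was 82.8% among the 11496 genes with a mean of at least 100 counts. For the other genes the interval reached past 2-fold.

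The granule genes of the neutrophil lineage had positive but unresolved differences. All 8 members of the primary granule list had a log2 fold change above 0. So did 8556 of the 14916 genes tested, with 6360 below, the background for all counts of signs given here. The median of the list was 0.33 against 0.03 over all genes tested. None of its members was at an unadjusted p under 0.05 (background 0.510%). Elane, which encodes neutrophil elastase, was measured at 248, 545, 681 and 1127 normalized RPKM in WT libraries 1 to 4 and at 376, 982, 1247 and 1830 in Prss57-/- libraries 1 to 4. Both genotypes thus spanned a wide range, and WT library 4 lay above Prss57-/- libraries 1 and 2. The log2 difference was 0.74 ± 0.52 (SE, 95% interval -0.42 to 1.91, exact permutation p = 0.286). Ms4a3, a membrane protein gene restricted to granulocyte and monocyte progenitors, stood at 80.4, 154, 174 and 326 in WT and 93.5, 416, 353 and 437 in Prss57-/- libraries, with WT library 1 and Prss57-/- library 1 the lowest of all 8. Its log2 difference was 0.80 ± 0.51 (95% interval -0.34 to 1.93). Ctsg, the cathepsin G gene, differed by 0.49 ± 0.33 on the log2 scale and Prtn3, the proteinase 3 gene, by 0.38 ± 0.34. Mpo, which encodes myeloperoxidase, had 2478 ± 610 normalized RPKM in WT and 2843 ± 674 in Prss57-/- CMPs (SD, n = 4), a log2 difference of 0.18 ± 0.28. In bulk libraries a different share of cells of a type and a different RNA level per cell cannot be told apart.

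The scale of the normal CMP to GMP difference puts these values in proportion. The primary granule genes were lower in WT CMPs than in WT GMPs with a median log2 difference of -2.13 (CMP minus GMP), with 6 of 8 lower at an adjusted p under 0.01 and 2-fold (edgeR, background 6.28%), and Elane had a difference of -3.72 (adjusted p = 6.6e-05, edgeR). The differences between genotypes within CMPs were smaller than the step between the cell types. The mean of the primary granule list, relative to the WT mean, ran from -0.46 in WT library 1 to 0.51 in WT library 4, and from -0.37 in Prss57-/- library 1 to 0.69 in Prss57-/- library 4. Within the shared first index, Prss57-/- libraries 1 to 3 stood at -0.26 relative to WT library 4, and with the index as a covariate the median of the list was -0.14. Both values rest on WT library 4 alone, the highest WT library on this list, so index and genotype cannot be told apart here.

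**Figure D1:**
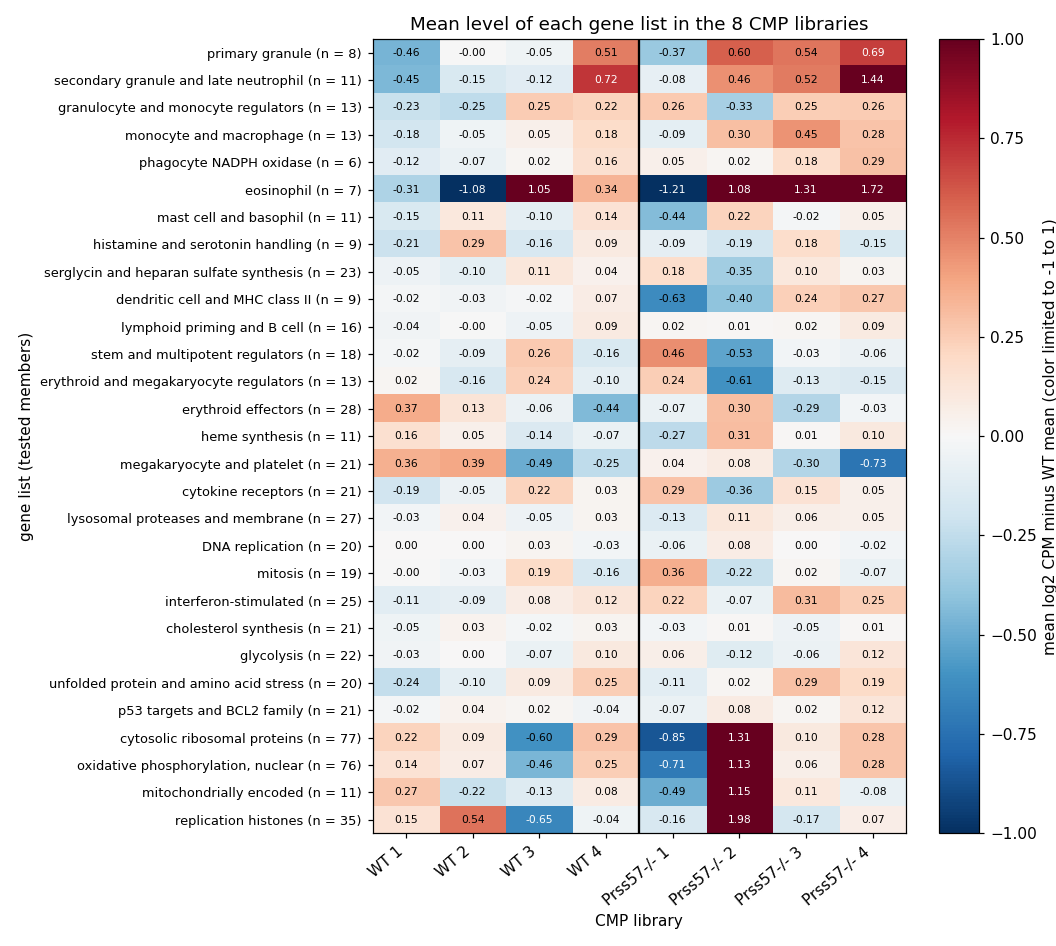
Mean log2 CPM of the tested members of 29 gene lists in each CMP library, relative to the mean of the 4 WT libraries, with the value printed in each cell and the color limited to -1 to 1. The primary and late granule lists are high in WT library 4 and Prss57-/- libraries 2 to 4 and lower in WT library 1 and Prss57-/- library 1, and the ribosomal, respiratory and histone lists are highest in Prss57-/- library 2.

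Genes of later neutrophil maturation were scarce in CMPs. Of the 18 members of the secondary granule and late neutrophil list, 11 passed the filter on low counts, 9 of them with a log2 fold change above 0, and the median was 0.69. S100a8 and Camp, 2 of the 11, were at an unadjusted p under 0.05 (background 0.510%). S100a8, which encodes a calcium-binding protein of neutrophils and monocytes, was measured at 7.46, 6.72, 6.92 and 18.1 normalized RPKM in WT and 4.85, 24.6, 23.4 and 50.1 in Prss57-/- libraries. Prss57-/- library 1 was the lowest of the 8 and library 4 the highest. The log2 difference was 1.37 ± 0.60 (edgeR unadjusted p = 0.0478, adjusted p = 0.99993, exact permutation p = 0.143). Camp, the gene for the antimicrobial peptide cathelicidin, was at 0.34, 0.436, 0.458 and 0.874 in WT and 0.525, 5.40, 0.705 and 2.46 in Prss57-/- libraries (log2 difference 2.05 ± 0.74, 95% interval 0.40 to 3.71, edgeR unadjusted p = 0.020, adjusted p = 0.99993, exact permutation p = 0.143). The groups overlapped for both genes. Without Prss57-/- library 4 the median of the list was 0.01. With the first index as a covariate it was -0.04, a value that rests on WT library 4, the highest WT library on this list. Ltf, the lactoferrin gene of secondary granules, and Retnlg, a gene of mature neutrophils, had 61 and 66 reads over all 8 libraries and did not pass the filter.

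Monocyte and eosinophil genes did not separate the genotypes. The 13 monocyte and macrophage genes all had positive log2 differences with a median of 0.25, and 8 of them had a 95% interval within 2-fold. Adgre1, the gene for F4/80, came nearest to a difference, at 0.80, 0.737, 0.924 and 1.02 normalized RPKM in WT and 0.821, 1.24, 1.75 and 1.36 in Prss57-/- libraries (log2 difference 0.55 ± 0.26, exact permutation p = 0.0857). Its groups overlapped through Prss57-/- library 1. Ly6c2, a surface marker of monocytes, differed by 0.44 ± 0.29 on the log2 scale, and F13a1, the coagulation factor XIII A gene of monocytes, by 0.10 ± 0.20. The eosinophil list varied widely within each genotype, with library means from -1.08 to 1.05 in WT and from -1.21 to 1.72 in Prss57-/- CMPs. Prg2, the eosinophil major basic protein gene, varied from 0.279 to 28.2 normalized RPKM among the WT libraries and from 1.64 to 76.6 among the Prss57-/- libraries. The 6 genes of the phagocyte NADPH oxidase had a median log2 difference of 0.16, in which Cyba, a membrane subunit of the enzyme, was at 0.41 ± 0.42, and at -0.08 without Prss57-/- library 2. Fcgr2b and Fcgr3 had log2 differences of 0.34 ± 0.16 and 0.64 ± 0.48, and no Fc gamma value separated the genotypes.

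The transcription factors that set these lineages were measured more tightly than the granule genes. Spi1 stood at 51.6, 50.5, 63.5 and 69.96 normalized RPKM in WT and 65.3, 45.1, 71.4 and 69.6 in Prss57-/- CMPs, and the groups overlapped along their whole range. Its log2 difference was 0.08 ± 0.20 and that of Cebpa was 0.06 ± 0.25, both with a 95% interval within 2-fold. Irf8, a regulator of monocytes and dendritic cells, differed by -0.02 ± 0.19 on the log2 scale. Gfi1, a repressor needed for neutrophil formation, differed by 0.31 ± 0.22. Cebpe, the factor that drives secondary granule genes, was less certain, at 0.69 ± 0.56, with 16.2 normalized RPKM in Prss57-/- library 4 and 2.48 in WT library 1. Over all 13 granulocyte and monocyte regulators the median was 0.06, and 10 of them had an interval within 2-fold.

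**Figure D2:**
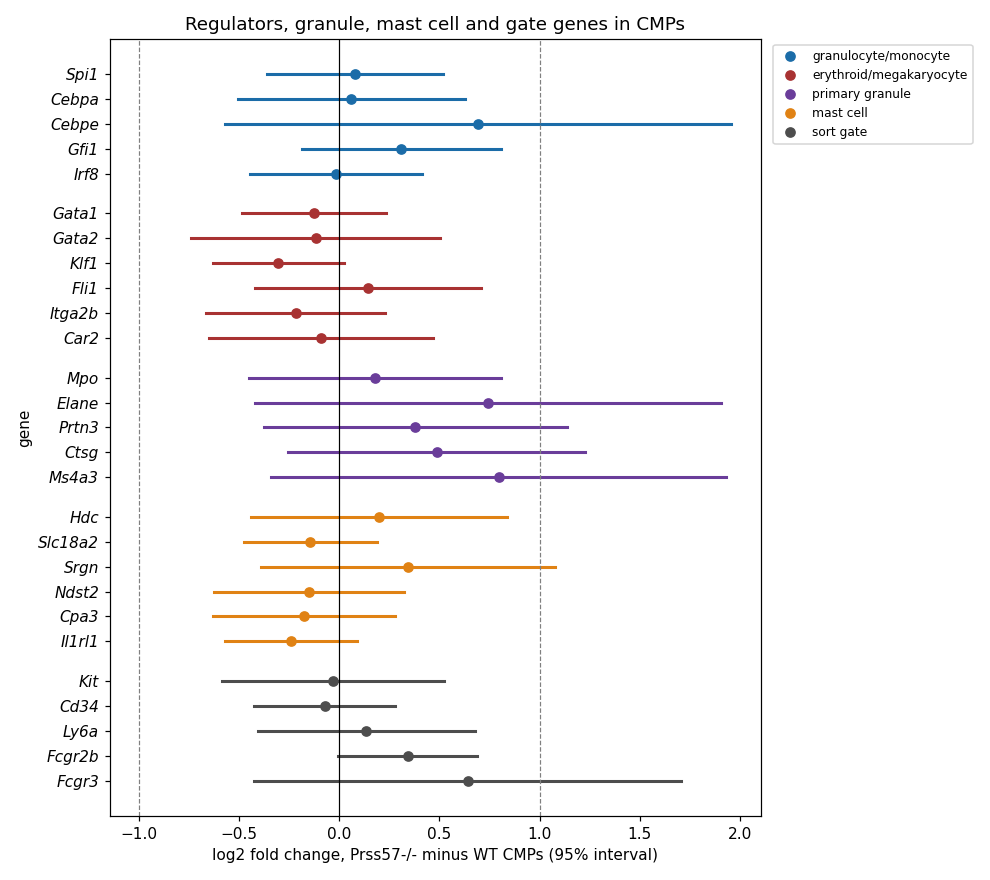
Log2 fold change between Prss57-/- and WT CMPs (points) with its 95% interval from the edgeR fit (bars) for 27 genes in 5 groups, with dashed lines at 2-fold in either direction. The regulators Spi1, Cebpa, Irf8, Gata1, Gata2, Klf1 and Fli1 lie within 2-fold, whereas the intervals of Cebpe, Elane, Prtn3, Ctsg, Ms4a3, Srgn and Fcgr3 reach past it.

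On the erythroid and megakaryocyte side most differences were small and negative. Of 13 regulators, 11 had a log2 fold change below 0 and 2 above, with a median of -0.12, and 12 of the 13 had an interval within 2-fold. Klf1, the master regulator of erythroid genes, was measured at 110, 91.9, 102 and 85.3 normalized RPKM in WT and 82.4, 82.4, 71.2 and 84.3 in Prss57-/- libraries. It was the only regulator of the list in which every Prss57-/- library lay below every WT library (background 0.396%), and the gap between WT library 4 and Prss57-/- library 4 was narrow. The log2 difference was -0.31 ± 0.15 with an unadjusted p of 0.0641 in the edgeR fit, an adjusted p of 0.99993 and an exact permutation p of 0.0286, the smallest that 4 libraries against 4 can give. Gata1 differed by -0.13 ± 0.16 and Gata2 by -0.12 ± 0.28 on the log2 scale. Among 21 megakaryocyte and platelet genes 19 were below 0, the median was -0.17 and no gene separated the genotypes. Itga2b, which encodes the platelet integrin CD41, stood at 127, 138, 102 and 103 in WT and 127, 110, 85.7 and 86.5 in Prss57-/- libraries (log2 difference -0.22 ± 0.20). Selp, the P-selectin gene, differed by -0.35 ± 0.21, and Pf4, the platelet factor 4 gene, by 0.23 ± 0.42, with 2561 normalized RPKM in Prss57-/- library 2 and at most 1277 elsewhere. Without that library the log2 difference of Pf4 was -0.36. With the first index as a covariate, and so against WT library 4 alone, the median of the megakaryocyte and platelet list was 0.24.

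The effector genes of red cells did not separate the genotypes either. The 28 erythroid effector genes had a median log2 difference of -0.05, and 20 of them had an interval within 2-fold. Car1, a carbonic anhydrase gene of early erythroid cells, stood at 740 ± 200 normalized RPKM in WT and 630 ± 166 in Prss57-/- CMPs (SD, n = 4), a log2 difference of -0.26 ± 0.25. Car2 differed by -0.09 ± 0.25 and Aqp1, the water channel aquaporin 1, by -0.11 ± 0.19. Of these 28 genes, 17 were higher in WT CMPs than in WT GMPs at an adjusted p under 0.01 and 2-fold (edgeR, background 6.53%). Aqp1 was higher in WT CMPs than in WT GMPs by a log2 value of 4.79 (adjusted p = 1.02e-06, edgeR). Stem and multipotent regulators had a median of 0.00, with 9 of 18 on either side. Myb, a regulator of progenitor growth, was at -0.01 ± 0.23. Mycn had the smallest p of that list, at 5.71, 5.40, 7.33 and 7.41 in WT and 5.75, 2.46, 5.29 and 4.18 in Prss57-/- libraries (log2 difference -0.56 ± 0.27, exact permutation p = 0.0857). The lymphoid priming list had a median of 0.01.

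Genes of mast cell mediators were of interest because mast cell granules hold histamine and serotonin bound to serglycin, a proteoglycan whose heparin chains are built by heparan sulfate enzymes. None of the 9 tested genes of histamine and serotonin handling or of the 23 tested genes of serglycin and heparan sulfate synthesis was at an unadjusted p under 0.05, where 0.510% of all genes stood, and their median log2 differences were -0.05 and 0.02 (the mean over the second list was -0.01). Hdc, the enzyme that makes histamine, was measured at 12.9, 14.4, 23.2 and 22.2 normalized RPKM in WT and 20.1, 12.5, 25.4 and 26.5 in Prss57-/- libraries. The groups overlapped fully, and the log2 difference was 0.20 ± 0.28 (95% interval -0.44 to 0.84). Slc18a2, the vesicular transporter that loads both amines into granules, stood at 9.30, 10.7, 10.1 and 9.29 in WT and 8.01, 9.58, 10.3 and 8.29 in Prss57-/- CMPs, with a log2 difference of -0.14 ± 0.15 and an interval of -0.48 to 0.19. Srgn, the serglycin core protein gene, differed by 0.34 ± 0.33, and 1188 normalized RPKM in Prss57-/- library 2 set its upper end. Without that library the log2 difference of Srgn was -0.03. Ndst2, the heparin-forming sulfotransferase of mast cells, differed by -0.15 ± 0.21.

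Markers of mast cells and basophils were present in part. Of 15 list members 11 were tested, and Mcpt4 and Tpsab1, proteases of mature mast cells, had 0 reads in all 8 CMP libraries. The median over the tested members was 0.00 (the mean was -0.04). Cpa3, the carboxypeptidase of mast cell granules, stood at 82.5, 97.8, 63.3 and 72.5 normalized RPKM in WT and 60.3, 91.2, 76.6 and 55.7 in Prss57-/- CMPs, with overlapping groups and a log2 difference of -0.18 ± 0.20. Il1rl1, the receptor for interleukin 33, differed by -0.24 ± 0.15 (95% interval -0.57 to 0.09).

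Programs of growth and metabolism were close to level or followed single libraries. DNA replication genes had a median log2 difference of -0.02, and 17 of 20 had an interval within 2-fold; Mcm5, a subunit of the replicative helicase, stood at 176 ± 3.81 normalized RPKM in WT and 170 ± 6.41 in Prss57-/- CMPs (SD, n = 4). Mitosis genes had a median of 0.06 and cholesterol synthesis genes of -0.01, with 20 of 21 of the latter within 2-fold. Ribosomal protein genes had a median of 0.38 with 74 of 77 above 0, and nuclear genes of oxidative phosphorylation 0.35 with 71 of 76 above 0. These 2 lists moved with Prss57-/- library 2. The mean of the ribosomal list relative to the WT mean was 1.31 in that library and -0.85 in Prss57-/- library 1, the highest and the lowest of the 8. Without Prss57-/- library 2 the medians were -0.14 and -0.10, and those of mitochondrially encoded and replication histone genes went from 0.29 to -0.18 and from 0.63 to -0.14. Without Prss57-/- library 1 the medians were 0.61 for ribosomal protein, 0.56 for oxidative phosphorylation and 0.48 for mitochondrially encoded genes.

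**Figure D3:**
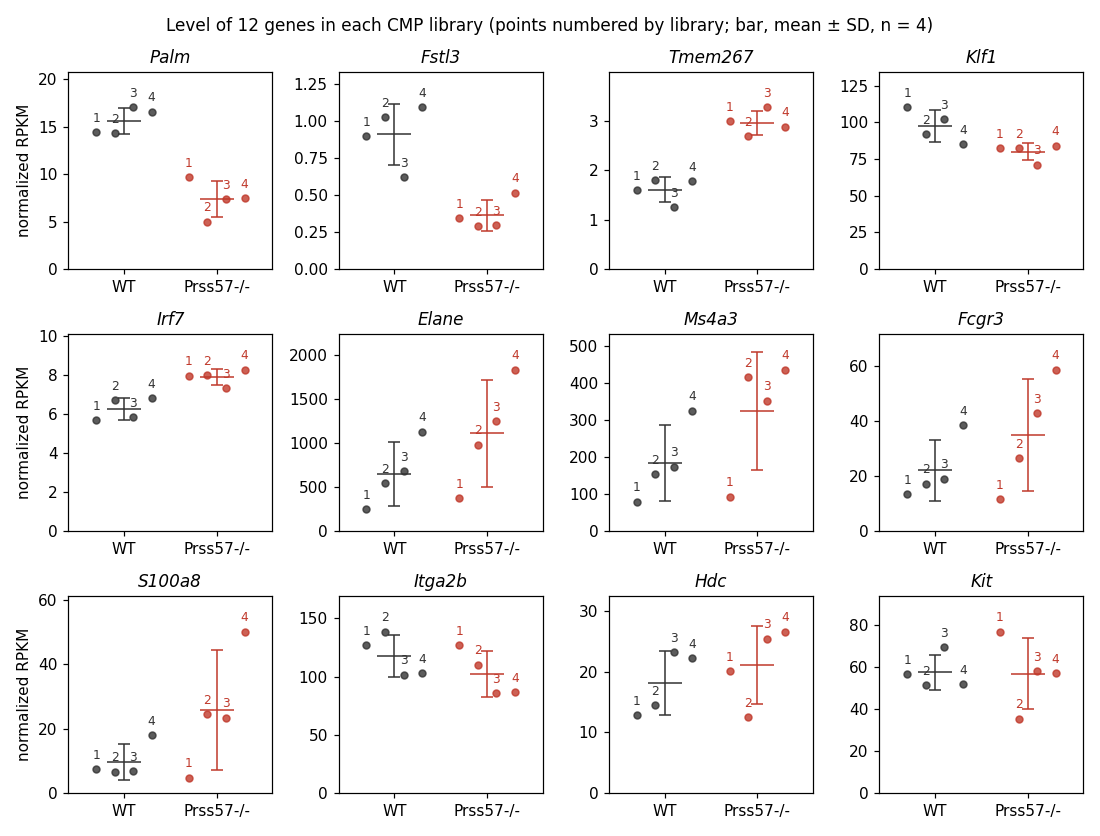
Normalized RPKM of 12 genes in the 4 WT and 4 Prss57-/- CMP libraries, with points numbered by library and bars giving mean ± SD (n = 4). Palm, Fstl3 and Klf1 lie lower and Tmem267 and Irf7 higher in every Prss57-/- library, and the groups overlap for the other 7 genes.

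Interferon-stimulated genes had a median log2 difference of 0.10, with 19 of 25 above 0. In 2 of them, Ifit3 and Irf7, every Prss57-/- library lay above every WT library (background 0.422%). Irf7, the transcription factor that sustains the interferon response, was measured at 5.69, 6.72, 5.86 and 6.81 normalized RPKM in WT and 7.97, 7.98, 7.32 and 8.28 in Prss57-/- libraries (log2 difference 0.31 ± 0.15, unadjusted p = 0.0624 in the edgeR fit, exact permutation p = 0.0286). Irf7 was named after its values were seen. That exact p is the smallest possible here and follows from groups that do not overlap, so it adds no support. Ifit3, an interferon-induced antiviral gene, was close to the limit of detection, with 4, 7, 14 and 3 reads in WT and 30, 16, 18 and 26 in Prss57-/- libraries. Its log2 difference was 1.82 ± 0.54 (edgeR unadjusted p = 0.00718, adjusted p = 0.99993). Bst2, which tethers budding virus, was at 0.30 ± 0.20 and Ifit1, an interferon-induced antiviral gene, at 0.00 ± 0.37, both with overlapping groups. In GMPs the median of the list was 0.18, with 3 of 24 members at an unadjusted p under 0.05 (background 0.810%). No member of the list was at an unadjusted p under 0.05 in both cell types. For 2 members the genotype difference departed between CMPs and GMPs at an unadjusted p under 0.05 (interaction in edgeR, background 1.06%). Over the distinct members of the 40 lists, 6 of 694 tested (0.865%) were at an unadjusted p under 0.05 against 0.510% of all genes, and 0 were at an adjusted p under 0.05 (edgeR).

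Of the genes that flank Prss57, Palm and Fstl3 were the lower in every Prss57-/- library (background 0.396%). Prss57 lies on the minus strand of chromosome 10 (GRCm38, 79781474 to 79790961). Palm, the gene for the membrane protein paralemmin, starts 2611 bases away on the plus strand (79793572 to 79820896), and Fstl3, a secreted binder of activins, lies on the plus strand at the other end (79777272 to 79782630) and overlaps Prss57 by 1157 bases. The kit named for the GMP libraries of the study is stranded, but whether the counting used strand is not given in the sources used here, so reads in that overlap cannot be assigned between Fstl3 and Prss57. The 250 bases before the RefSeq start of each gene are shown because these were the 2 neighbors in which every Prss57-/- CMP library was the lower. The RefSeq start of Fstl3 lies just inside the gene bounds given above. The sequences are those of RefSeq on GRCm38.p6, plus strand, 5′ to 3′, with CpG dinucleotides in capitals. Palm (chr10:79793322-79793571) lies in the gap between the Palm and Prss57 starts and holds 20 CpGs, and 17.9% of 32851 promoters hold at least as many. Fstl3 (chr10:79777024-79777273) holds 22, and 14.8% of promoters hold at least as many.
Palm: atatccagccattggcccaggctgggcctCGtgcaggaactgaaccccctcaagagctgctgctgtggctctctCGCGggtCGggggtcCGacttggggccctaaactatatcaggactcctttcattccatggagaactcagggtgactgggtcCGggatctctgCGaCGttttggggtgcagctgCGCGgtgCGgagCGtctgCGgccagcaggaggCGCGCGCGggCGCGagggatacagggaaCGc
Fstl3: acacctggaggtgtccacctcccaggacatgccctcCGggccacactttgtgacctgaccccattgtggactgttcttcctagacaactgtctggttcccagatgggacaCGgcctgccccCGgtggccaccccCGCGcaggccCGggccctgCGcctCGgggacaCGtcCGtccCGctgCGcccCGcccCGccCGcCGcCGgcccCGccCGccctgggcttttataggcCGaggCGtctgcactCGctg

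Palm was measured at 14.4, 14.3, 17.0 and 16.6 normalized RPKM in WT libraries 1 to 4 and at 9.68, 5.01, 7.35 and 7.46 in Prss57-/- libraries 1 to 4. The groups were well apart, with the lowest WT library above the highest Prss57-/- library. Palm stood at 0.468 times its WT level, a log2 difference of -1.10 ± 0.21 (95% interval -1.57 to -0.63). In edgeR this had an unadjusted p of 4.65e-04, the smallest after Prss57, but did not pass adjustment (0.99993). In DESeq2 the adjusted p was 0.00485. The exact permutation p was 0.0286, which follows from groups that do not overlap and adds no support. In GMPs the log2 difference of Palm was -0.98, at an adjusted p of 0.0311 (edgeR). Prss57 and Palm were the 2 genes of 14689 (0.0136%) at an adjusted p under 0.05 there. GMPs and CMPs share no library, but whether they came from the same animals is not given in the sources used here. Fstl3 was at 0.90, 1.02, 0.622 and 1.09 normalized RPKM in WT and 0.345, 0.291, 0.297 and 0.515 in Prss57-/- CMPs, a low level that rested on 16 to 103 reads per library. Its log2 difference was -1.34 ± 0.32 in CMPs (unadjusted p = 0.00207, adjusted p = 0.99993, edgeR) and -0.97 in GMPs (unadjusted p = 5.11e-04, adjusted p = 0.99995, edgeR). The part that the deletion itself or flanking sequence has in either value was not tested.

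Within 250 kb on either side 27 other genes were tested, and apart from Palm and Fstl3 the 25 remaining genes had log2 differences from -0.10 to 0.74 with a median of 0.06. None of the 25 was at an unadjusted p under 0.05 (background 0.510%), and the smallest was 0.0556 for Hcn2, a pacemaker channel gene. Hcn2 was at 0.262, 0.244, 0.331 and 0.169 normalized RPKM in WT and 0.34, 0.535, 0.373 and 0.438 in Prss57-/- libraries, so that every Prss57-/- library was the higher (background 0.422%). Prtn3 and Elane, which lie 83.5 and 95.3 kb from the Prss57 start, belong to this region, and both overlapped between genotypes as described above.

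**Figure D4:**
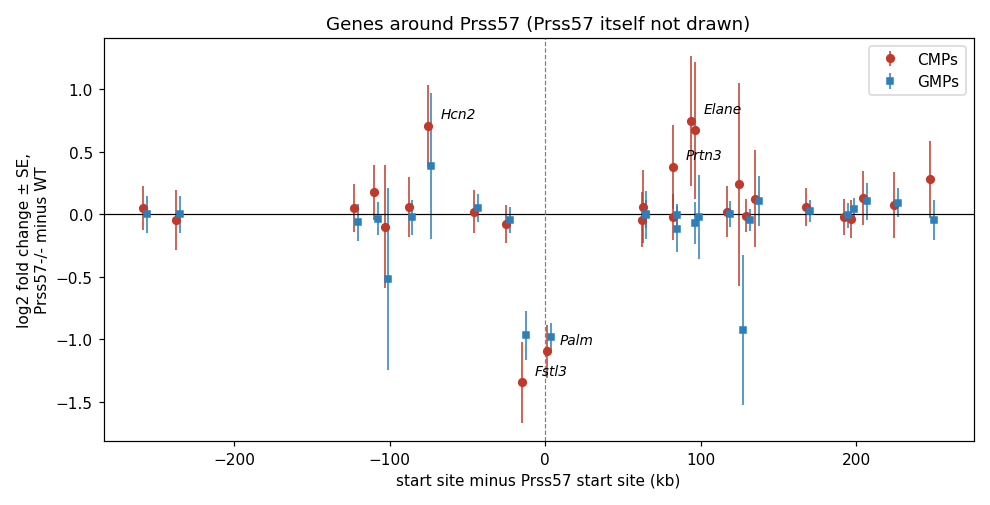
Log2 fold change ± SE between Prss57-/- and WT libraries in CMPs (circles) and GMPs (squares) for the 27 tested genes within 250 kb of Prss57, against the distance of their start site from that of Prss57 in kb. Palm and Fstl3 lie near -1 in both cell types, and Prss57 itself is not drawn.

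Outside the lists, the genes with the smallest p in each direction were mostly of low abundance. Tmem267, a transmembrane protein gene, was the exception, with 195 to 577 reads per library. It was measured at 1.597, 1.79, 1.26 and 1.77 normalized RPKM in WT and 2.99, 2.69, 3.26 and 2.88 in Prss57-/- CMPs, without overlap. The log2 difference was 0.87 ± 0.19 (edgeR unadjusted p = 0.00116, adjusted p = 0.99993, DESeq2 adjusted p = 0.0183). In GMPs it was 0.50 (unadjusted p = 0.0472, edgeR). Xkrx, an XK-related membrane protein gene on chromosome X, had 32, 22, 36 and 39 reads in WT and 6, 0, 0 and 3 in Prss57-/- libraries (unadjusted p = 0.00121 in edgeR, adjusted p = 0.00485 in DESeq2), and was too low in GMPs to be tested there. Gm6954, a processed pseudogene whose reads may belong to its parent gene, had 4, 1, 6 and 5 reads in WT and 29, 34, 30 and 24 in Prss57-/- libraries, and in GMPs its log2 difference was 0.04. The pseudogene Gm44521, the noncoding RNA Gm20939 and the antisense RNA 2810468N07Rik completed the set, with log2 differences of 1.39, 1.43 and -1.40 and adjusted p of 0.99993 (edgeR).

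The genotype difference was then compared between CMPs and GMPs. The fit had no term for animal, although the cell types may come from the same animals. In GMPs 119 genes (0.810%) were at an unadjusted p under 0.05. Of 15900 genes none had a difference in CMPs that departed from that in GMPs at an adjusted p under 0.05 (interaction in edgeR; 169 genes, or 1.06%, at an unadjusted p under 0.05; limma voom 129 and DESeq2 255 at an unadjusted p under 0.05, and 0 at an adjusted p under 0.05). At an unadjusted p under 0.05 in both cell types and in the same direction stood 4 of 14147 genes (0.0283%), which were Prss57, Palm, Fstl3 and Tmem267. The opposite direction held for 2 genes (0.0141%), Rmrp and n-R5-8s1, both noncoding RNAs that were looked at after their values were seen. Their GMP values rested on WT GMP library 3, in which Rmrp had 2040 reads against 12 to 47 in the other 7. The primary granule list, at 0.33 in CMPs, had a median of -0.08 in GMPs, and none of its genes departed between the cell types at an unadjusted p under 0.05.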

How the data were processed

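The tables hold read counts per gene and normalized RPKM, as deposited by the authors, who aligned reads with GSNAP and counted uniquely aligned reads within exons on GRCm38. The deposited counts are not normalized, and the edgeR, limma and DESeq2 fits start from them. The deposited normalized RPKM are used for levels, for the exact permutation tests and for whether the genotypes overlap. They also give the single-gene values among the results flagged for a closer look. The study's methods describe RNA-seq of GMPs and mast cells, and that of CMPs is not given in the sources used here. Of 52636 genes, 52489 matched GENCODE M21. Counts were filtered with filterByExpr, scaled by TMM and tested with the edgeR 4.0.16 quasi-likelihood test (R 4.3.3), with Benjamini-Hochberg adjustment. limma 3.58.1 and DESeq2 1.42.0 served as alternatives. The scripts were tested on simulated data. Exact permutation tests were two-sided (scipy 1.17.1). Named genes were the called genes, the 5 with the smallest p in each direction, the 3 most abundant members and the member with the smallest p of each list, the neighbors of Prss57, and fixed gate, regulator and granule genes. Irf7, Hcn2, Rmrp, n-R5-8s1 and Cacna2d1 were named after their values were seen. The members and lists were chosen with earlier results of these data known. Some genes are not reported here.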

Additional observations from a re-analysis of the deposited data

Results flagged for a closer look

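In each group of 4 libraries the highest and the lowest value were set against the others, and 14 of 232 groups held a value whose gap to its nearest neighbor exceeded Dixon's 95% critical share of the range. Chance gives about 1 in 20. In WT library 4, S100a8 was at 18.1 normalized RPKM (median of the other 3, 6.92). In WT library 3, Srgn was the lowest at 421.8 (584.7), ribosomal protein genes took 3.04% of reads (4.84%), protein-coding genes 97.0% (96.0%) and long noncoding and other RNAs 2.96% (4.01%). In WT library 1, Rmrp was at 4.51 (1.58). In Prss57-/- library 3, Klf1 was the lowest at 71.2 (82.4).

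Prss57-/- library 2 held 5 such values. Hist1h4c, a replication histone gene, was at 4.82 normalized RPKM (1.11), replication histones took 0.0334% of reads (0.0119%), and the mean of their list was 1.98 (-0.16). The mean of the granulocyte and monocyte regulators was -0.33 (0.26), and Cacna2d1, a calcium channel subunit gene, was at 0.0212 normalized RPKM (0). In Prss57-/- library 1 the mean of the primary granule list was the lowest at -0.37 (0.60), and in Prss57-/- library 4 that of the lymphoid priming list was the highest at 0.089 (0.017). No cause was tested.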

How the results depend on the processing

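Of 21 alternatives, 8 left out 1 library each, and the use of sample quality weights, the share of reads on short genes, the gene length trend and the first index was chosen after seeing the data. Genes at an adjusted p under 0.01 with a 2-fold change numbered 1 in edgeR, 3 in DESeq2, 2 with quality weights, 2 with the short-gene share and 0 with at least 10 counts in every library, a filter that removes Prss57 itself. At an adjusted p under 0.05 the numbers were 5 in DESeq2, 3 with quality weights (Prss57, Palm and Cacna2d1), 2 with the short-gene share and 0 with the count minimum. At an unadjusted p under 0.05, in place of 76, they were 136 in DESeq2, 414 with no filter, 219 with CMPs and GMPs in 1 fit, 1298 with quality weights, 401 with the short-gene share and 149 with the first index. They ran from 60 to 561 when 1 library was left out, the highest without Prss57-/- library 1, and reached 211 without Prss57-/- library 2. For the interaction they were 255 in DESeq2, 795 with no filter and 47 with at least 10 counts, and 166 to 475 with 1 library left out, the highest without Prss57-/- CMP library 1. The 1 member of the genes around Prss57 called in DESeq2, with quality weights and with the short-gene share was Palm.

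With the first index as a covariate, a fit that compares Prss57-/- libraries 1 to 3 with WT library 4 alone, the medians were -0.14 for primary granule, -0.044 for late neutrophil, -0.022 for NADPH oxidase, -0.14 for Fc gamma receptor, 0.24 for megakaryocyte, 0.37 for erythroid effector, -0.36 for dendritic cell, 0.068 for lymphoid, 0.67 for immunoglobulin, 2.61 for stroma, -0.15 for unfolded protein, -0.11 for glycolysis, -0.058 for cholesterol, 0.022 for replication and -0.012 for Prss57 neighbor genes. With library size alone they were -0.11 for cholesterol, -0.084 for lymphoid, -0.083 for lysosomal, -0.053 for p53, -0.063 for Prss57 neighbor and -0.085 for replication genes. The lymphoid median was -0.065 in limma voom and -0.064 with the length trend removed. With quality weights the medians were -0.050 for cholesterol, 2.03 for eosinophil, -0.27 for histone and -0.062 for T and NK cell genes, and with the short-gene share -0.23 for mast cell genes. With 1 library left out, the medians ran from 0.0081 to 1.21 for late neutrophil, -0.19 to 0.15 for heme, -0.055 to 0.052 for lymphoid, -0.074 to 0.090 for Prss57 neighbor, -0.13 to 0.016 for replication, 0.0090 to 0.29 for T and NK cell and -0.076 to 0.13 for excluded gate genes. The cause was not tested. The other 478 list medians from full sets of libraries moved by less than the spread between libraries, and 37 of 66 named genes changed sign under at least 1 alternative.

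Same-numbered libraries of the genotypes correlated from -0.162 to 0.316 in their deviations from the group means, against -0.645 to 0.597 for others. Prss57-/- libraries 2, 3 and 4 correlated best with the WT library of their own number (0.316, 0.299 and 0.171). Prss57-/- library 1 correlated best with WT library 3 (0.597). These correlations do not settle whether the numbers pair the libraries, so a fit with the number as a block is given beside the main fit. With the replicate block 1 gene was called, 90 were at an unadjusted p under 0.05, and the lymphoid median was -0.077.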

Other observations

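Several gene groups were not described above. Cytokine receptor genes had a median log2 difference of 0.07, with 20 of 21 intervals within 2-fold, and lysosomal protease and membrane genes 0.02, with 26 of 27. The 12 genes of lysosomal glycosaminoglycan breakdown all had intervals within 2-fold, and their median was 0.01. Chondroitin sulfate synthesis genes were at -0.06, glycolysis genes at -0.02, genes of p53 and the BCL2 family at 0.03, and genes of unfolded protein and amino acid stress at 0.08. Dendritic cell and MHC class II genes had a median of -0.02, T and NK cell genes of 0.15 (5 of 13 tested), stroma and endothelium genes of -0.11 (6 of 11 tested) and immunoglobulin segments of 0.03 (10 of 393 tested). The dendritic cell, stroma and immunoglobulin lists were not resolved, since few of their intervals lay within 2-fold. These were 3 of 9 dendritic cell, 1 of 6 stroma and 2 of 10 immunoglobulin genes. The stroma median ran from -0.54 to 0.73 when 1 library was left out. Of the T and NK cell genes, 3 of 5 had an interval within 2-fold. Their median ran from 0.0090 to 0.29 when 1 library was left out. Immediate early and heat shock genes stood at 0.03 and heme synthesis genes at 0.02.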
